A study of Mus musculus with 23 samples.

Results

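The genes described here are the interleukin-1 (IL-1) agonists Il1a and Il1b, their receptor antagonist Il1rn, the inflammasome sensor Nlrp3, its adaptor Pycard and the inflammatory caspases Casp1 and Casp4. They were taken by name from a table of RNA and ribosome-footprint levels, in which 7 of 7 were present among 6397 genes. The levels were measured in bone marrow-derived macrophages (BMDMs) of adult C57BL/6 mice, grown for 7 days in medium supplemented with L929 cell conditioned medium. Cultures received 100 ng/ml of lipopolysaccharide (LPS) for 1, 2, 4 or 6 h, or none (0 h), with 2 replicates, A and B, at each time. Each culture was divided between RNA sequencing and ribosome profiling, in which ribosome-protected fragments (RPFs, or footprints) are sequenced, giving 10 libraries of each kind. The series also held 2 CLIP-seq libraries of the RNA-binding protein Zfp36 and 1 input library, all at 4 h of LPS and with the CLIP made by an antibody to a V5 tag that was placed on the endogenous Zfp36 by genome editing. The study's methods describe the replicates as biological, and the labels do not say whether A and B came from separate mice.

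IL-1 alpha and IL-1 beta act on the same receptor, and the IL-1 receptor antagonist occupies that receptor without signaling. LPS activates Toll-like receptor 4 on macrophages, which primes them by inducing Il1b and Nlrp3 transcription. Pro-IL-1 beta is then matured by caspase-1 once a sensor such as NLRP3 and the adaptor ASC, the product of Pycard, have assembled an inflammasome, while caspase-11, the product of mouse Casp4, binds cytosolic LPS and drives a non-canonical route. None of the assembly, cleavage or secretion steps is read by RNA or footprint levels.

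Levels were deposited as RPKM, reads scaled to coding length and to the mapped reads of the library, so levels of different genes can be set side by side as far as the coding lengths used are right. The length behind the Il1rn values could not be settled, since none of the RefSeq coding lengths of 480, 489 and 537 bases gave whole reads (within 0.15 read) in both 0 h footprint libraries, and the level of Il1rn relative to other genes, its ratios and its place in their order included, rests on that length. All 10 macrophage markers examined, such as Adgre1 and Csf1r, were present at a mean of at least 10 RPKM, and of the markers of 8 other cell types only the fibroblast gene Col1a1 was in the table, at 0.362 to 1.36 RPKM of RNA. A marker that was not in the table had no level to read, so its absence is not a measured low level. Replicates correlated across genes at Pearson's r of 0.991 to 0.997 for RNA and 0.882 to 0.985 for footprints, with the lowest value at 1 h. Footprint libraries held about 550000 to 3460000 reads as recovered from the steps in low values, and the shallowest was 6 h replicate A. The depth of the RNA libraries is unknown. Because these are bulk samples, fewer cells of a type and less RNA per cell cannot be told apart.

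Changes were tested with limma on log2(RPKM + 1) over all genes with a mean of at least 10 RPKM, 4805 for RNA and 5277 for footprints, with calls made where the p adjusted by Benjamini-Hochberg was under 0.05. All 7 genes passed this filter in both assays. RNA of Il1a, Il1b and Casp4 and footprints of Il1a averaged under 10 RPKM at 0 h, so these passed only through their levels after LPS. Log2 changes and folds below are on the RPKM + 1 scale, which understates the change of a gene near 0.

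RNA of 6 of the 7 genes was higher after 6 h of LPS than at 0 h, while Pycard was not called. The same 6 were called higher at 4 h. At 1 h and at 2 h, 5 genes were higher and Pycard was lower, and Casp1 was not called. Among all genes tested, the share called higher was 7.72% for 1 h, 15.7% for 2 h, 24.3% for 4 h, and 26.1% for 6 h, and the share called lower 9.12% at 1 h and 37.7% at 2 h. The median change of all genes in RNA against 0 h was -0.15, -0.22, -0.33 and -0.41 in the order of the times, and that of the 7 genes was 1.75, 3.01, 3.68 and 4.04.

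**Figure D1:**
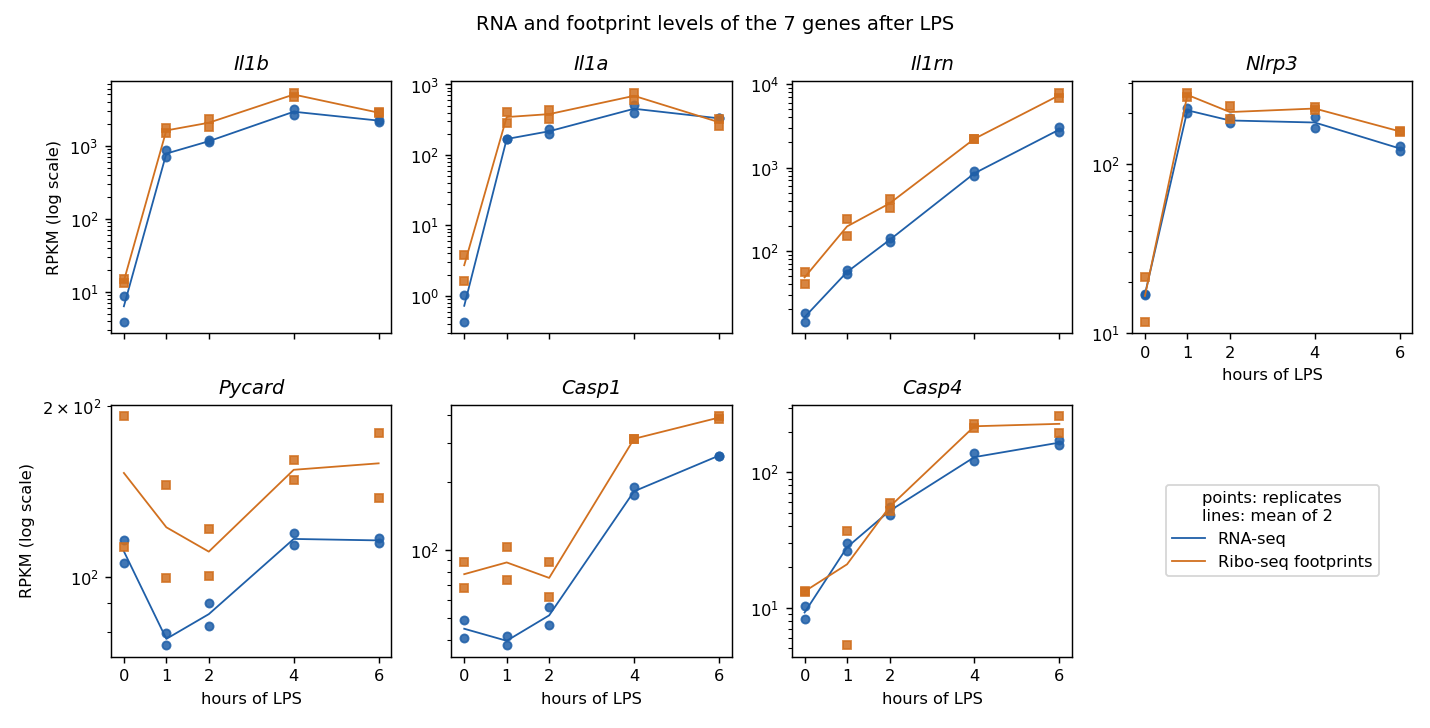
RNA (circles) and footprint (squares) RPKM of each gene in each replicate, on a log axis, against hours of LPS, with lines through the mean of 2. Il1b, Il1a and Nlrp3 were already high at 1 h, Il1rn rose at every interval to 6 h, Casp1 stayed near its 0 h level until 2 h, and Pycard varied least, with RNA from 75.7 to 119 RPKM.

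Sequences around these genes are given from RefSeq (GRCm38.p6, the assembly of the mm10 build the files use), to set the features known for inducible cytokine genes beside the levels. Il1a lies at chr2:129299609-129310186 and Il1b at chr2:129364569-129371164, both on the minus strand, and Il1rn at chr2:24336860-24351491. Casp1 lies at chr9:5298517-5307281 and Casp4 at chr9:5308849-5336791, Nlrp3 at chr11:59541569-59566955, and Pycard at chr7:127991373-127993867 on the minus strand. The 250 bases before the annotated start are shown for Il1a and Il1b, which had the largest changes at 1 h, with a TATAAA box in capitals, and for Casp4, with matches to the kB consensus, the site type bound by NF-kB, in capitals.
Il1a, chr2:129309973-129310222, minus strand: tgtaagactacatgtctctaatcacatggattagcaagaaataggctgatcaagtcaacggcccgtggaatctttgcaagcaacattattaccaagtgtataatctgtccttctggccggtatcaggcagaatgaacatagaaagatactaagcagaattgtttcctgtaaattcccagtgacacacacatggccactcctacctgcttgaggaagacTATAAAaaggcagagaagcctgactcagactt
Il1b, chr2:129371140-129371389, minus strand: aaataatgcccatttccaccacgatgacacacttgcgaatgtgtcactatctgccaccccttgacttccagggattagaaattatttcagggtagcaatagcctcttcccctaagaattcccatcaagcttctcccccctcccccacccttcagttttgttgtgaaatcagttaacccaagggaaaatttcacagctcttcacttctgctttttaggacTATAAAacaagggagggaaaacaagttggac
Casp4, chr9:5308599-5308848, plus strand: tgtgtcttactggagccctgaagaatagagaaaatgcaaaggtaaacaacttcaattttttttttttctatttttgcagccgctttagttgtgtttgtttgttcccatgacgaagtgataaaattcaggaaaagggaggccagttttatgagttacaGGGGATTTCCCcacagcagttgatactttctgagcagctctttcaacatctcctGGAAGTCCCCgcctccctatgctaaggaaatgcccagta

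TATAAA, searched on the sense strand, stood at -32 to -27 in Il1a and at -31 to -26 in Il1b and in no window of the other 5 genes, and 8.32% of 32851 annotated promoters of 300 bases held it. The kB consensus, searched on both strands, matched Casp4 at -93 to -83 in overlapping registers and at -39 to -30, and 1 of 2 annotated Nlrp3 promoters at -186 to -177, and 8.46% of promoters held it. TGANTCA, the AP-1 type site, was present in Il1a and in 1 Il1rn promoter and in 7.81% of all. GAGGAAG, also searched on both strands, was present in Il1a, in Pycard and in 1 of 2 Nlrp3 promoters and in 13.6% of all. A match is a description of these letters in these windows only.

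The agonists Il1a and Il1b had the largest RNA changes of the 7 at 1 h. Il1b, which encodes the pro-IL-1 beta precursor, had RNA levels of 8.88 and 3.93 RPKM without LPS, 699.5 and 859 RPKM after 1 h, 1117 and 1180.4 RPKM after 2 h, 2623 and 3188 RPKM after 4 h, and 2132 and 2262 RPKM after 6 h. Both replicates at every LPS time lay above both at 0 h, and those at 4 h were the highest. Against 0 h the log2 change was 6.80 ± 0.23 (SE), adjusted p = 1.04e-12 at 1 h and 8.70 ± 0.23 (SE), adjusted p = 1.32e-14 at 4 h, a 414-fold difference at 4 h. Only 2 genes of 4805 had a larger increase at 1 h. Between 4 h and 6 h the Il1b change of -0.40 ± 0.23 (SE), adjusted p = 0.177 did not pass the threshold, although the ranges of the 2 times did not overlap. It passed without 0 h replicate A or B, at the same change of -0.40, where only the shared spread differed.

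Il1a, whose product is active as a precursor and can be released by dying cells, had RNA levels of 1.02 and 0.428 RPKM without LPS, 166 and 171 RPKM after 1 h, 232 and 201 RPKM after 2 h, 399 and 505 RPKM after 4 h, and 332 and 329 RPKM after 6 h. The 0 h replicates were the only ones below 100 RPKM. The log2 change against 0 h was 6.64 ± 0.15 (SE), adjusted p = 1.48e-14 at 1 h and 8.05 ± 0.15 (SE), adjusted p = 5.85e-16 at 4 h. Since Il1a was near 0 in untreated cells, the 4 h value depended on the amount added before taking logs and was 9.19 with 0.1 RPKM added and 6.31 with 5 RPKM added. At 6 h Il1a was lower than at 4 h, at -0.44 ± 0.15 (SE), adjusted p = 0.0322, where 26.5% of genes were called lower. That call was lost without either 6 h replicate or without 4 h replicate B, with changes of -0.27 to -0.45, and the adjusted p was 0.149 with 0.1 RPKM added and 0.101, for a change of -0.32, with libraries centered on their median.

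Il1rn followed a later course. Its RNA levels were 18 and 14.1 RPKM without LPS, 52.7 and 59.2 RPKM after 1 h, 129 and 141 RPKM after 2 h, 797 and 909 RPKM after 4 h, and 2655 and 3053 RPKM after 6 h, and each time lay above all earlier ones with no overlap. The change against 0 h was 1.75 ± 0.14 (SE), adjusted p = 5.58e-08 for 1 h, 5.65 ± 0.14 (SE), adjusted p = 4.96e-15 for 4 h, and 7.39 ± 0.14 (SE), adjusted p = 3.91e-16 for 6 h. Il1rn was called higher at every interval, by 1.26 at 2 h against 1 h, 2.65 at 4 h against 2 h, and 1.74 at 6 h against 4 h, the last with an adjusted p of 1.65e-07. In that last interval it had the 14th largest increase of the 4805 genes, and 14.5% of genes were called higher. By mean RNA level, Il1rn was 3935th of 6397 genes at 0 h and 17th at 6 h, and Il1b was 5689th without LPS, 16th after 4 h and 21st after 6 h.

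Nlrp3, the sensor, was called in both directions. RNA levels were 16.9 and 17 RPKM without LPS, 213 and 200.4 RPKM after 1 h, 185 and 175 RPKM after 2 h, 162 and 188 RPKM after 4 h, and 119 and 127 RPKM after 6 h. The 1 h replicates were the highest and the 0 h replicates the lowest. The change against 0 h was 3.53 ± 0.11 (SE), adjusted p = 6.07e-13 at 1 h and 2.79 ± 0.11 (SE), adjusted p = 2.47e-12 at 6 h, and it was lower at 6 h than at 4 h, at -0.50 ± 0.11 (SE), adjusted p = 0.0022. Neither the change from 1 to 2 h (-0.20) nor that from 2 to 4 h (-0.04) was called.

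Pycard, the adaptor that links NLRP3 to caspase-1, was the most abundant of the 7 in untreated cells and, in RNA, the least abundant at 4 and 6 h. Its RNA was at 116 and 106 RPKM without LPS, 79.7 and 75.7 RPKM after 1 h, 81.9 and 89.9 RPKM after 2 h, 114 and 119 RPKM after 4 h, and 115 and 117 RPKM after 6 h. All 4 values at 1 and 2 h lay below both 0 h values. The change was -0.51 ± 0.11 (SE), adjusted p = 0.00388 at 1 h and -0.36 ± 0.11 (SE), adjusted p = 0.0116 at 2 h, and Pycard then rose by 0.44 ± 0.11 (SE), adjusted p = 0.00284 from 2 to 4 h. The 1 h call was lost without 1 h replicate B (-0.47, adjusted p = 0.052), and the 2 h call without 0 h replicate A or 2 h replicate A (-0.30, adjusted p of 0.0827 and 0.106). At 6 h against 0 h the change was 0.06 ± 0.11 (SE), adjusted p = 0.588, which became 0.29 with an adjusted p of 0.0135 when libraries were centered on their median.

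The caspases are neighboring genes. Casp4 was called higher at 1 and 2 h against 0 h and Casp1 was not, a difference between them that was not tested, and over the 10 RNA libraries they correlated at Pearson's r = 0.871. Casp1, which encodes the protease that cuts pro-IL-1 beta, had RNA levels of 40.6 and 48.7 RPKM without LPS, 37.7 and 41.3 RPKM after 1 h, 46.5 and 55.9 RPKM after 2 h, 175 and 190.0 RPKM after 4 h, and 263 and 264 RPKM after 6 h. The ranges at 1 h and at 2 h each overlapped that at 0 h, with changes of -0.17 ± 0.12 (SE), adjusted p = 0.338 at 1 h and 0.19 ± 0.12 (SE), adjusted p = 0.196 at 2 h. Casp1 then rose between 2 and 4 h by 1.82 ± 0.12 (SE), adjusted p = 5.42e-09, where 23.2% of genes were called higher, and again from 4 to 6 h by 0.53 ± 0.12 (SE), adjusted p = 0.00333.

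Casp4 RNA was at 8.17 and 10.2 RPKM without LPS, 26 and 29.8 RPKM after 1 h, 48.3 and 55.3 RPKM after 2 h, 121 and 139 RPKM after 4 h, and 159 and 173 RPKM after 6 h, and no replicate of one time overlapped those of another. The change against 0 h was 1.51 ± 0.13 (SE), adjusted p = 2.12e-07 at 1 h and 4.04 ± 0.13 (SE), adjusted p = 1.75e-13 at 6 h, a 16.4-fold difference. The last step, from 4 to 6 h, was 0.36 ± 0.13 (SE), adjusted p = 0.0398, and it was lost without 4 h replicate A or either 6 h replicate, with changes of 0.26 to 0.41.

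Taken interval by interval, 3 of the 7 genes were called higher from 1 to 2 h (Il1rn, Casp1 and Casp4, where 12.2% of genes were), 6 from 2 to 4 h (all but Nlrp3, where 23.2% of genes were) and 3 from 4 to 6 h (Il1rn, Casp1 and Casp4, where 14.5% of genes were). With a replicate block in the limma model, Il1a (adjusted p = 0.0394) and Il1b (adjusted p = 0.013) were also called higher from 1 to 2 h. There 663 of 4805 genes were called higher. Il1a and Nlrp3 were called lower from 4 to 6 h, 2 of 7 beside 26.5% of all genes, a share near the background. The Casp1 call from 1 to 2 h, 0.36 ± 0.12 (SE), adjusted p = 0.0469, was lost without 1 h replicate A or B, 2 h replicate B or 6 h replicate A or B, with changes of 0.23 to 0.43.

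Footprints of 4 genes (Il1a, Il1b, Il1rn and Nlrp3) were higher than at 0 h after 1 and 2 h of LPS, and those of 6 genes after 4 and 6 h, with Pycard again the exception. The shares of all 5277 genes called higher were 2.94% for 1 h, 5.65% for 2 h, 11.7% for 4 h, and 12.8% for 6 h. The median footprint change of all genes was -0.18, -0.32, -0.50 and -0.66 at these times.

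Il1b footprints were at 13.5 and 15 RPKM without LPS, 1498 and 1727 RPKM after 1 h, 1802 and 2307 RPKM after 2 h, 4661 and 5316 RPKM after 4 h, and 2789 and 2847 RPKM after 6 h, so that 0 h and 4 h held the lowest and the highest values. The change against 0 h was 6.72 ± 0.15 (SE), adjusted p = 5.55e-09 at 1 h and 8.35 ± 0.15 (SE), adjusted p = 2.15e-10 at 4 h. Counted as recovered reads, both 0 h libraries together held 42 Il1b footprints and both 4 h libraries 21613, which is 339-fold with an exact 95% interval of 250.5 to 470.2 after scaling to library depth, an interval that covers counting error only. Il1b footprints were lower at 6 h than at 4 h, at -0.82 ± 0.15 (SE), adjusted p = 0.0211, where 3.05% of genes were called lower. This call did not hold without any single 4 h or 6 h library, with changes of -0.73 to -0.92.

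Il1a footprints were at 3.85 and 1.60 RPKM without LPS, 281 and 408 RPKM after 1 h, 327 and 432 RPKM after 2 h, 609.9 and 769 RPKM after 4 h, and 261 and 321 RPKM after 6 h. The 0 h values rest on 4 reads in replicate A and 3 in replicate B, against 1718 and 1239 reads at 4 h. After scaling to library depth the 4 h level was 278-fold with an exact 95% interval of 135 to 692 that of 0 h. The fitted change was 6.58 ± 0.32 (SE), adjusted p = 4.07e-07 at 1 h and 7.59 ± 0.32 (SE), adjusted p = 7.98e-08 at 4 h. From 4 to 6 h it was -1.24 ± 0.32 (SE), adjusted p = 0.0603, short of the threshold although both 6 h values lay below both 4 h values. The limma change passed with 5 RPKM added (adjusted p = 0.0283) or with library weights (adjusted p = 0.0138). It also passed without any single 0 h or 1 h library, at the same change of -1.24, where only the shared spread differed.

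Il1rn footprints were at 40.2 and 56.1 RPKM without LPS, 153 and 241 RPKM after 1 h, 327 and 415 RPKM after 2 h, 2209 and 2214 RPKM after 4 h, and 6789 and 7939 RPKM after 6 h, with no overlap between times. The change against 0 h was 5.51 ± 0.24 (SE), adjusted p = 9.19e-08 at 4 h and 7.24 ± 0.24 (SE), adjusted p = 1.34e-08 at 6 h. Between 4 and 6 h Il1rn was higher by 1.73 ± 0.24 (SE), adjusted p = 0.00616 and was the only one of the 7 called higher, where 1.36% of genes were. That call was lost without either 4 h replicate or without 6 h replicate B, with changes of 1.62 to 1.73.

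Nlrp3 footprints were at 21.5 and 11.7 RPKM without LPS, 247 and 263 RPKM after 1 h, 183 and 221 RPKM after 2 h, 208 and 215 RPKM after 4 h, and 155 and 156 RPKM after 6 h. Both 0 h values lay far below the rest, and the change against 0 h was 3.92 ± 0.27 (SE), adjusted p = 6.46e-06 at 1 h and 3.21 ± 0.27 (SE), adjusted p = 1.15e-05 at 6 h. Pycard footprints were at 113 and 192 RPKM without LPS, 145 and 99.4 RPKM after 1 h, 100.1 and 121 RPKM after 2 h, 148 and 161 RPKM after 4 h, and 179 and 138 RPKM after 6 h. The 0 h range overlapped that of every later time, while both 2 h values lay below those of 4 and 6 h and both 1 h values below those of 4 h. No Pycard comparison was called, with changes against 0 h from -0.41 to 0.09.

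Casp1 footprints were at 67.8 and 88.5 RPKM without LPS, 73.2 and 103 RPKM after 1 h, 61.6 and 88.8 RPKM after 2 h, 313 and 313 RPKM after 4 h, and 395 and 383 RPKM after 6 h. As for RNA, the 4 h and 6 h values stood above the earlier ones, and the change against 0 h was 2.00 ± 0.25 (SE), adjusted p = 0.000226 at 4 h. Casp4 footprints were at 13.2 and 13.1 RPKM without LPS, 36.5 and 5.26 RPKM after 1 h, 51.9 and 59.1 RPKM after 2 h, 226 and 212 RPKM after 4 h, and 196 and 261 RPKM after 6 h. The 1 h replicates were on opposite sides of the 0 h values, and the lower one, replicate B, rests on about 10 reads. Against 0 h the Casp4 change was 0.11 ± 0.63 (SE), adjusted p = 0.946 for 1 h, 1.99 ± 0.63 (SE), adjusted p = 0.0732 for 2 h, and 3.96 ± 0.63 (SE), adjusted p = 0.00102 for 4 h. The 1 h change was 1.40 without 1 h replicate B and -1.18 without 1 h replicate A, each then resting on 1 library whose spread is taken from the other times, so no p is given. The 2 h change stayed at 1.99 without 1 h replicate A or B. It then passed the threshold, but only the shared spread had changed, so no p is given.

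From 2 to 4 h, footprints of Il1b, Il1rn and Casp1 were called higher, where 8% of genes were. From 1 to 2 h limma called 0 of the 7 genes against 5.04% of all genes in either direction. At an unadjusted p under 0.05, 2 of the 7 were higher, namely Casp4 and Il1rn (0.94 ± 0.24 (SE), adjusted p = 0.0532). At that threshold 434 of the 5277 genes were higher and 602 lower.

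The balance of agonist and antagonist within a library passed through a maximum at 1 h. The ratio of Il1b to Il1rn, taken as RPKM + 1 over RPKM + 1, was 0.520 and 0.326 without LPS, 13 and 14.3 after 1 h, 8.59 and 8.30 after 2 h, 3.29 and 3.50 after 4 h, and 0.803 and 0.741 after 6 h in RNA. In footprints the same ratio was 0.352 and 0.280 without LPS, 9.74 and 7.15 after 1 h, 5.49 and 5.55 after 2 h, 2.11 and 2.40 after 4 h, and 0.411 and 0.359 after 6 h. Il1b therefore exceeded Il1rn in both replicates at 1, 2 and 4 h and was below it in both at 0 and 6 h. Changes of these ratios between times were not tested.

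For Il1a over Il1rn the ratio was 0.106 and 0.0945 without LPS, 3.11 and 2.85 after 1 h, 1.79 and 1.42 after 2 h, 0.501 and 0.556 after 4 h, and 0.125 and 0.108 after 6 h in RNA. Il1a exceeded the antagonist at 1 and 2 h only. In footprints the ratio was 0.118 and 0.0455 without LPS, 1.83 and 1.70 after 1 h, 1 and 1.04 after 2 h, 0.276 and 0.348 after 4 h, and 0.0387 and 0.0406 after 6 h, and it was about even at 2 h. Il1b exceeded Il1a in all 20 libraries, with ratios of 2.99 to 10.6.

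**Figure D2:**
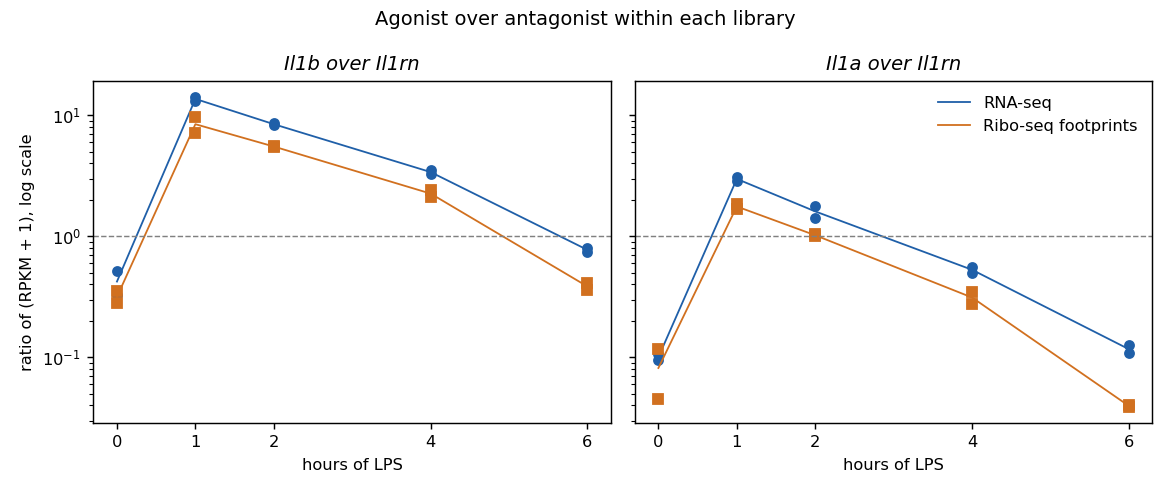
Ratio of Il1b (left) and Il1a (right) to Il1rn within each library, as (RPKM + 1) over (RPKM + 1) on a log axis, against hours of LPS, with RNA as circles, footprints as squares, lines through the mean of 2 and a dashed line at 1. Both ratios peaked at 1 h, and at 6 h the Il1b ratio was 0.803 and 0.741 in RNA and 0.411 and 0.359 in footprints.

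The order of the 7 genes by mean level changed accordingly. In RNA at 0 h it was Pycard, Casp1, Nlrp3, Il1rn, Casp4, Il1b and Il1a, where Nlrp3 and Il1rn overlapped, as did Casp4 and Il1b. At 1 h Il1b led, followed by Nlrp3 and Il1a. At 4 h Il1b was followed by Il1rn and Il1a. At 6 h the order was Il1rn, Il1b, Il1a, Casp1, Casp4, Nlrp3 and Pycard, with no overlap between neighbors. In footprints Il1rn led at 6 h as well, at a mean of 7364 RPKM against 2818 RPKM for Il1b, and Casp1 stood above Il1a.

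Translational efficiency (TE), the ratio of footprint to RNA RPKM of the same culture, was tested with limma over 4621 genes. It was called for 0 of the 7 genes in 7 comparisons, against 0% of all genes in each of them. At an unadjusted p under 0.05 there were 3 member results, all lower, which were Il1a at 6 h against 0 h, Il1a at 6 h against 4 h and Casp1 at 2 h against 1 h. At that threshold 484, 108 and 277 of the 4621 genes were lower in these 3 comparisons, and 74, 36 and 140 were higher. A model over both assays with an interaction of assay and time also called 0 of the 7, while among the 4621 genes it called 1 higher and 2 lower at 1 h and 1 higher and 3 lower at 6 h, both against 0 h.

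Il1a had TE ratios of 3.78 and 3.74 without LPS, 1.69 and 2.39 after 1 h, 1.41 and 2.14 after 2 h, 1.53 and 1.52 after 4 h, and 0.788 and 0.975 after 6 h, with the 0 h values resting on 7 footprint reads in all. Both 6 h values were below all others. The log2 change was -0.80 ± 0.31 (SE), adjusted p = 1 at 6 h against 4 h and -1.25 ± 0.31 (SE), adjusted p = 0.265 at 6 h against 0 h. Il1b TE was 1.52 and 3.81 without LPS, 2.14 and 2.01 after 1 h, 1.61 and 1.95 after 2 h, 1.78 and 1.67 after 4 h, and 1.31 and 1.26 after 6 h. The 0 h replicates differed by more than any later pair, and both 6 h values were below all others, with a change of -0.42 ± 0.35 (SE), adjusted p = 1 against 4 h.

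Between 4 and 6 h, 4 of the 7 genes (Il1a, Il1b, Casp1 and Casp4) had both 6 h ratios below both 4 h ratios, against 23% of all genes. The median TE of all genes was itself lower at 6 h, at 1.41 and 1.40, against 1.53 and 1.43 at 4 h. Divided by the median of its library, Il1a TE was 0.558 and 0.698 at 6 h and 0.999 and 1.06 at 4 h, and Il1b TE was 0.925 and 0.900 at 6 h and 1.16 and 1.16 at 4 h. On that scale 3 of the 7 (Il1a, Il1b and Casp1) did not overlap, against 17% of all genes.

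Il1rn had the highest TE of the 7 at 1, 2, 4 and 6 h, with values of 2.23 and 3.98 without LPS, 2.90 and 4.06 after 1 h, 2.53 and 2.94 after 2 h, 2.77 and 2.44 after 4 h, and 2.56 and 2.60 after 6 h. They exceeded the median of all genes in every culture, by 1.30 to 2.56 times. Nlrp3 lay below the median in every culture, at 0.419 to 0.919 times it. Casp1 TE was 1.32 to 2.50, Pycard TE 0.973 to 1.82 and Casp4 TE 0.18 to 1.88, where the lowest Casp4 value was again 1 h replicate B.

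**Figure D3:**
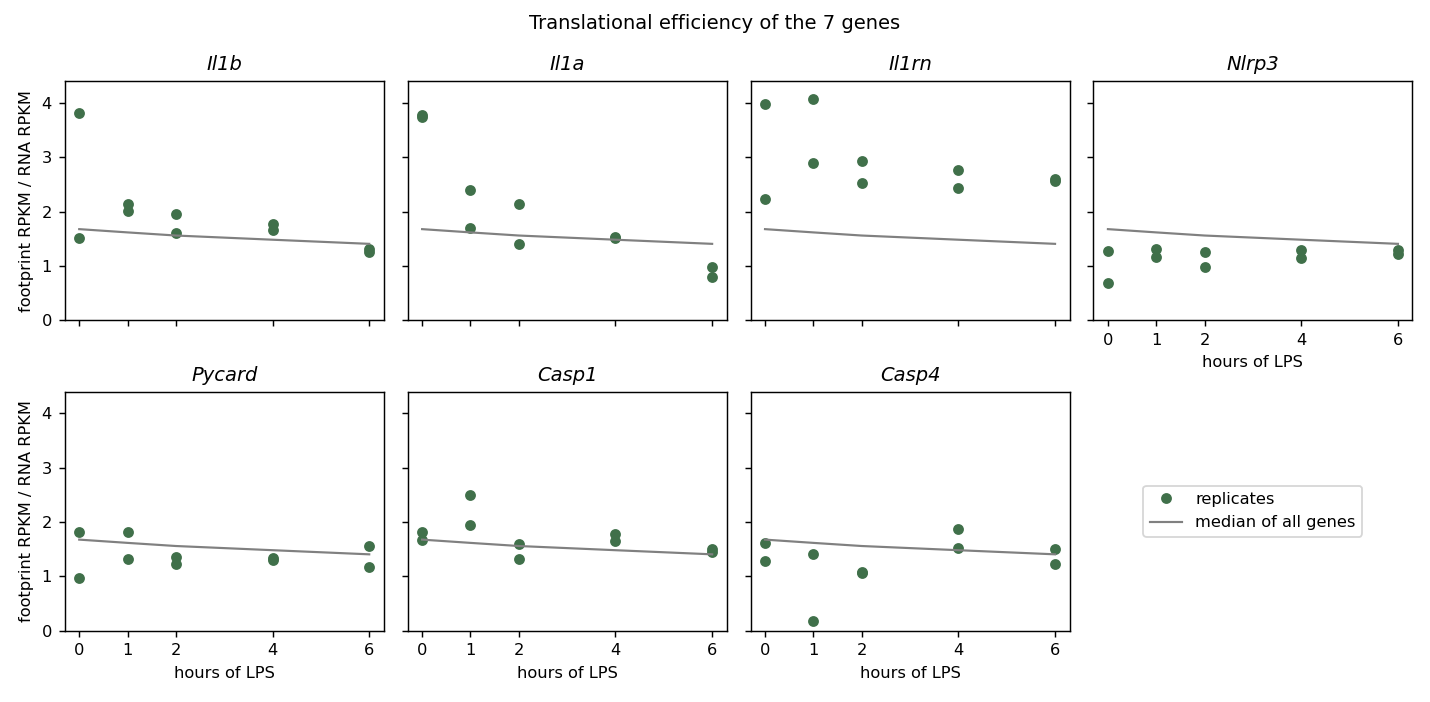
TE, as footprint RPKM over RNA RPKM, of each gene in each replicate (points) against hours of LPS, with the median over 4621 genes as a gray line. Il1a and Il1b were lowest at 6 h, Il1rn lay above the line and Nlrp3 below it throughout.

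Zfp36 (tristetraprolin) binds AU-rich elements in 3' untranslated regions (3'UTRs), whose core is UAUUUAU. Counted with overlaps, this core occurred 3 times in the Il1a 3'UTR, 3 times in that of Il1b, 2 times in that of Nlrp3, 1 time in that of Pycard, 1 time in 1 of the Casp4 transcripts, and 0 times in those of Il1rn and Casp1, and 28.3% of 6209 3'UTRs held at least 1. A stretch of 30 bases is shown for each of the 3 genes with more than 1 core, cores in capitals.
Il1b, chr2:129364807-129364836, minus strand: aaccacuuaccUAUUUAUUUAUgUAUUUAU
Il1a, chr2:129300108-129300137, minus strand: uuuuaucuaugUAUUUAUaaauaUAUUUAU
Nlrp3, chr11:59566839-59566868, plus strand: acccauuuuugUAUUUAUuguauguuugua

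In the CLIP-seq table, made from both Zfp36-V5 libraries at 4 h against the input with 1 line for each of 280 mRNAs, 1 of the 7 genes had a peak, namely Il1b. The peak lay in its 3'UTR at chr2:129364901-129364950, with a deposited fold over input of 2.82 and a p of 3.82e-56. That fold was the lowest of the 280, whose median was 14.96 and highest 235.5. None of the 3 UAUUUAU cores of Il1b lay inside the peak, and 75 bases separated the peak from the nearest core, on its 3' side. The peak was 40% A or U. None of the other genes with cores had a line among the 280. The paper states that the listed mRNAs had peaks in both CLIP-seq experiments, while the pooled list holds no values per replicate.

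Other genes of the pathway were read from a list of 89, of which 40 were in the table, and 34 were tested in RNA. At 6 h against 0 h, 19 were higher and 9 lower, with a median change of 0.58 beside -0.41 for all genes, of which 26.1% were higher and 54.9% lower. Among the regulators and effectors of inflammasomes 11 of 21 were higher and 5 lower, and among signal transducers of IL-1 and Toll-like receptors 7 of 12 were higher and 4 lower. At 1 h, 6 of the 34 were higher and 4 lower, beside 7.72% and 9.12% of all genes.

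The guanylate-binding proteins, interferon-induced GTPases that act on bacterial membranes and favor caspase-11 activation, had the largest changes, 7.999 ± 0.15 (SE), adjusted p = 4.56e-16 for Gbp5, 7.75 for Gbp2 and 6.93 for Gbp3. Gbp2 and Gbp3 were not called at 1 h (0.17 and 0.35), while Gbp5 was (1.71). Ifi204, a DNA-sensing protein of the interferon-inducible family, rose by 4.04. Of the transducers, Peli1, a ubiquitin ligase, rose by 3.09, the kinase Irak2 by 2.84, Irak3, an inhibitor of the cascade, by 2.61 and the adaptor Myd88 by 2.21. The sensor component Naip2 rose by 0.75.

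Named after their values were seen, as direct partners of the 7, Gsdmd, whose product forms the pore cut free by caspase-1 and caspase-11, was higher at 6 h by 1.98 ± 0.11 (SE), adjusted p = 8.47e-11, and Casp8 by 1.24. Nek7, a kinase that NLRP3 needs for assembly, was lower, at -0.71 ± 0.13 (SE), adjusted p = 0.000134, and Tlr4, the LPS receptor, was lower, at -1.36 ± 0.12 (SE), adjusted p = 2.35e-08. In footprints 37 of the listed genes were tested, and 16 were higher and 5 lower at 6 h, beside 12.8% and 36% of all genes. Il1rap, the accessory chain of the IL-1 receptor, was tested in footprints alone, at 1.34 ± 0.39 (SE), adjusted p = 0.0178. TE was called for 0 of 32 listed genes by limma at 6 h against 0 h. The other IL-1 family cytokines of the list, such as Il18, were not analysed here.

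**Figure D4:**
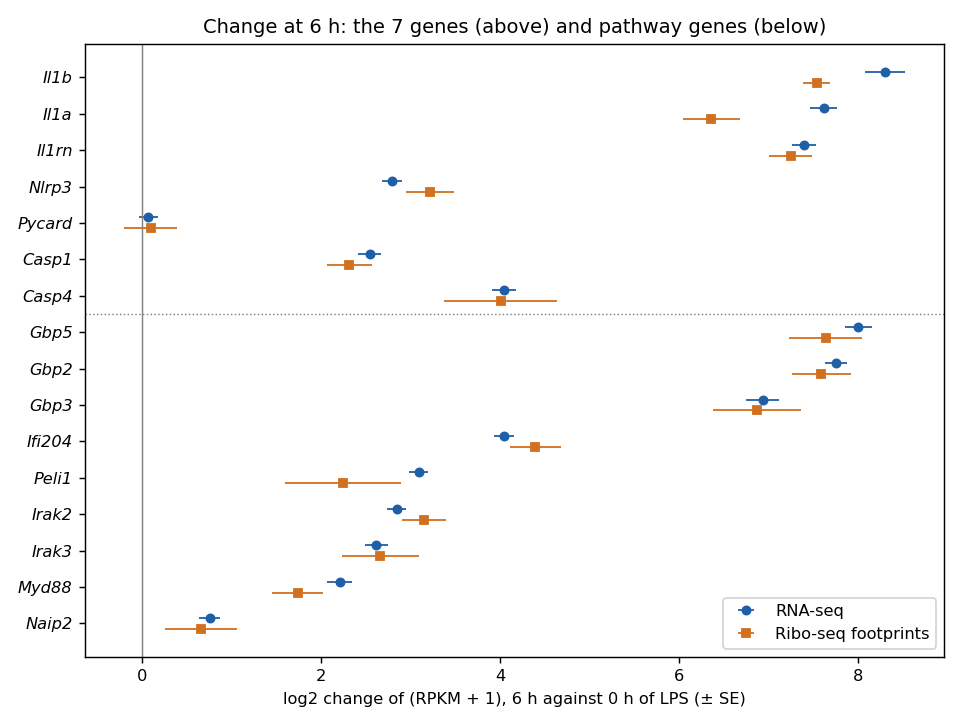
Log2 change of RPKM + 1 at 6 h against 0 h of LPS (x axis) in RNA (circles) and footprints (squares), with bars of ± SE from limma, for the 7 genes (above the dotted line) and the pathway genes with the largest RNA changes (below it). Pycard sat at 0.06 in RNA and 0.09 in footprints, and Gbp5 reached 7.999 in RNA, between Il1b at 8.30 and Il1a at 7.61.

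Over the 10 RNA libraries, correlations between pairs of the 7 genes ran from -0.42 to 0.998. Il1a and Il1b correlated at Pearson's r = 0.998 and each with Nlrp3 at 0.952 and 0.933, Il1rn with Casp4 at 0.974 and Casp1 at 0.938, and Nlrp3 with Pycard at -0.42. These values describe time courses that share libraries and carry no test. Among all genes the closest courses to Il1a were those of Ccrl2 (0.999), Il1b and Socs3, to Il1b those of Ccrl2, Il1a and Marcksl1, to Nlrp3 those of Tnfaip3 (0.996), Nfkbiz and Nfkbia, and to Il1rn those of Slc15a3 (0.997), Cpd and Slc2a1. Casp1 was closest to Ifi44 (0.999), Cmtr1 and Rasa4, Casp4 to Gch1 (0.998), Helz2 and Slc2a6, and Pycard to Maea (0.964), Zfp207 and Atg16l1.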

How the data were processed

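The series held 23 libraries, of which RNA-seq and Ribo-seq gave 10 each. Per the study's methods, the authors trimmed the reads, used Bowtie to discard rRNA, tRNA and mitochondrial sequences, mapped RNA-seq reads with TopHat to mm10 under RefSeq models and counted with HTSeq, and the deposited values are RPKM. The mapper of Ribo-seq reads is not given in the sources used here. Footprint values came out as whole reads for 96.2 to 99.4% of low values (within 0.06 read) when multiplied by coding length. For CLIP-seq, STAR and Piranha were used, and the deposited fold over input and p-value are per peak of both libraries together. The authors' own comparison columns (TE tests) were not used.

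Linear models were fitted with limma 3.58.1 in R 4.3.3 on log2(RPKM + 1), with a mean-variance trend, a 5-level time factor, 10 libraries per assay and 5 residual degrees of freedom, and p-values were adjusted by Benjamini-Hochberg over all genes per comparison. TE is log2((RPF + 1)/(RNA + 1)). RPKM are not counts, so no count test was run. Models were tested on simulated data. Alternatives were 0.1 or 5 RPKM added, other filters, median centering, a replicate block, no trend, library weights, 1 model over both assays for TE and each library left out, where a time with 1 library was assumed to vary like the others. Deviations of same-letter libraries correlated at 0.0906 to 0.542 in RNA, above 0.1 for 9 of 10 pairs of times, and at -0.0224 to 0.0173 in RPF. The labels give no shared source, and letters were not taken as pairs in the main fits. In RNA same-letter libraries thus shared deviations at most times, which the replicate block takes into account. Named genes are the 7, up to 4 called genes with the largest RNA change at 6 h per pathway group, and the 3 closest courses per gene. The 7 genes and the lists were chosen with earlier results of these data known. Figures used Python 3.11.15 and matplotlib 3.10.9.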

Additional observations from a re-analysis of the deposited data

How the results depend on the processing

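With genes required above 10 RPKM in every library of both assays, 4 of the 7 genes remained (Il1a, Il1b and Casp4 fell out) and the number of members called was 3 in RNA for each LPS time against 0 h, 1 for 2 h against 1 h, and 3 for the later intervals each, in footprints 2 at 1 and 2 h, 3 at 4 and 6 h, and 1 for 2 h against 1 h and for 6 h against 4 h, and of the pathway list in RNA 5 at 1 h and 13 at 6 h and in footprints 2 at 1 h and 10 at 6 h. With this filter 2878 genes were tested, 18 of them on the pathway list. RNA against 0 h called 183 higher and 163 lower at 1 h, 391 and 881 at 2 h. At 4 h it called 693 and 1327, at 6 h 772 and 1433. Footprints called 80 and 12 at 1 h, 157 and 177 at 2 h. At 4 h they called 356 and 764, at 6 h 413 and 1080. RNA counts were 269 and 136 between 1 and 2 h, 657 and 709 to 4 h, 396 and 571 to 6 h. Footprint counts were 83 and 50 between 1 and 2 h, 59 and 106 between 4 and 6 h. From 1 to 2 h, RNA called 5 members with a replicate block (Il1a and Il1b added), against 3. Footprints called 1 there, against 0, with 5 RPKM added, with median centering and with the block. The block changed no other count of members or listed genes by over 1.5 times. Counts over all genes moved more in places. With the block, RNA at 1 h against 0 h called 416 higher and 846 lower, against 371 and 438. With median centering, footprints at 6 h against 0 h called 1004 higher and 945 lower, against 675 and 1902. From 4 to 6 h they called 158 and 109, against 72 and 161. With 5 RPKM added, footprints called 5 members from 2 to 4 h, against 3. Without the mean-variance trend footprints called 1 member from 4 to 6 h, against 2. Leaving out single libraries moved the number of members called from 1 to 2 h and from 4 to 6 h, in RNA and footprints. It also moved the number of pathway genes called at 1 h, in footprints and TE. Without 1 h replicate A, footprint and TE calls at 1 h against 0 h rose among all genes too. The Casp4 TE change was then -2.78 at 1 h against 0 h and 2.40 from 1 to 2 h. Counts of such fits are not given, since a time with 1 library takes its spread from the other times. Casp4 footprints at 1 h against 0 h reversed to -1.18 without 1 h replicate A and were 1.40 without 1 h replicate B. With 1 h replicate B and 6 h replicate A both left out, an alternative chosen after the data were seen, 3 members were called in RNA from 4 to 6 h, against 5, and 1 in footprints for 2 h against 1 h and for 6 h against 4 h.

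The RNA ratio of Il1a to Il1rn at 0 h was 0.0494 with 0.1 and 0.273 with 5 RPKM added, and that of Il1b to Il1a 7.83 and 1.98. With 5 RPKM added Il1b to Il1rn was 8.23 in RNA at 2 h and, in footprints, 0.368 at 0 h and 5.47 at 2 h, and Il1a to Il1rn 0.152 in footprints at 0 h. With CLIP peaks of a fold of at least 5, 0 members had a peak. Of the single changes of the 7 genes under all alternatives, 875 of 910 in RNA, 873 of 910 in footprints and 957 of 959 in TE kept their side of the threshold. Direction was compared only where the main or the alternative fit made a call. Levels near 0 in untreated cells and the depth of the footprint libraries, about 550000 reads in the shallowest, limit the precision.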
